A study of Nannospalax ehrenbergi and Mus musculus with 14 samples.

Results

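The microRNAs miR-199 and miR-214 were followed through all small RNA libraries of a study that gave the carcinogen 3-methylcholanthrene (3MCA) to *Spalax*, the blind mole rat, and to mice. They were chosen by name, as the rows miR-199a-5p, miR-199a-3p, miR-199b-5p, miR-199b-3p, miR-214-3p and miR-214-5p. These are 6 of the 1326 microRNA names that each table lists. The names miR-199a-3p and miR-199b-3p held the same value in every library, so the 6 names gave 5 distinct profiles of 1060, and both names are written here as miR-199a-3p.

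Every animal had received a single injection of 3MCA, 1 mg in *Spalax* and 200 µg in mice, and both sides of each animal were sampled, the injected side (IS), where the sample was the growth itself, and the uninjected side (UIS). The labels give muscle as the tissue of every sample, but muscle microRNAs were near 0 in most IS libraries, as given below. The animals are named here as in the sample labels. The benign granulomas of *Spalax* came from spalax_600 and spalax_976, both female, at 14 and 16 months from the injection. The malignant fibrosarcomas of *Spalax* came from spalax_2240, a female sampled at 18 months, and spalax_2230, a male sampled at 30 months. The mice mouse_512, mouse_1023 and mouse_1019, all male, bore fibrosarcomas and were sampled at 11, 12 and 14 weeks. The study estimates its treated *Spalax* at ages from 2 to over 10 years and gives its mice as 3 to 4 months old, without an age for each animal. All UIS libraries came from treated, growth-bearing animals, so no comparison here is with untreated tissue. The column for the UIS of mouse_1019 carries another animal number, so that library was used as an unnumbered, unpaired replicate. Depth ranged from 2034574 to 13982842 microRNA reads over the 14 libraries, summed over all 1326 names. Identical names each count in that sum, miR-199a-3p and miR-199b-3p among them. Shares of reads and the scaling to total reads use this sum, so the shares of the members are lower than with identical names counted once.

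A microRNA gene is copied into a hairpin, and an arm of that hairpin, named 5p or 3p, guides the silencing complex to messenger RNAs that pair with its seed. The miR-199 and miR-214 genes lie on the strand opposite to dynamin genes, and the pair next to each other is made from a long noncoding RNA, Dnm3os, whose transcription is driven by the mesenchymal factor Twist1. Both are known from fibroblasts and other mesenchymal cells, from scar formation and from the tumor stroma, where miR-199a-5p represses caveolin-1 and miR-199a-3p represses mTOR and MET. The name fibroblast microRNAs rests on that background. The libraries are of whole tissue and hold no measurement of which cells made the microRNAs.

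In the mouse genome (GRCm38, GENCODE M21), whose names both tables use, Mir199a-2 lies at chr1:162217814-162217923 and Mir214 at chr1:162223368-162223477, both on the plus strand, 5444 bases apart. Each is inside an exon of Dnm3os and inside an intron of Dnm3, which runs on the minus strand. Mir199a-1 lies at chr9:21496495-21496564 on the minus strand, in an intron of Dnm2, and Mir199b at chr2:32318460-32318569 on the plus strand, in an intron of Dnm1. The annotated hairpins are shown because they bear on which names can be told apart, with the 26 bases that all 3 miR-199 hairpins share in capitals.
Mir199a-2: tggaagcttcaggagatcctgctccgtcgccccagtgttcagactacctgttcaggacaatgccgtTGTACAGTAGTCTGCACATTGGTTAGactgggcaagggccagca
Mir199a-1: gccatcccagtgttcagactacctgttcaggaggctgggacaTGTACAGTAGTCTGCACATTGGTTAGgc
Mir199b: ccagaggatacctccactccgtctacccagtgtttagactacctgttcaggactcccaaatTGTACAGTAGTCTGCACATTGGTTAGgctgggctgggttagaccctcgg
Mir214: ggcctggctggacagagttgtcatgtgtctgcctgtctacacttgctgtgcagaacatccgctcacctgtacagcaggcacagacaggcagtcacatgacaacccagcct
The shared stretch lies on the 3′ arm, where the a and b names held equal values. On the 5′ arm, a stretch of 27 bases was the same in Mir199a-1 and Mir199a-2 and differed from Mir199b at a single base, C10T, counted from the first base of the stretch and shown in capitals.
5p stretch of Mir199a-1 and Mir199a-2: cccagtgttCagactacctgttcagga
5p stretch of Mir199b: cccagtgttTagactacctgttcagga
Within these mouse letters, the 3p stretch does not separate the 3 genes, the 5p stretch does not separate the miR-199a genes, and a single base separates miR-199a-5p from miR-199b-5p. The *Spalax* sequence of these genes was not used here. Mature sequences were not used here either, so miRNAs that share a seed with a member were not listed.

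In granuloma, all 5 profiles were higher at the IS than at the UIS of the same animals, by 6.05-fold to 12.2-fold, where 25.5% of all microRNAs tested were called higher. In mouse fibrosarcoma 4 of the 5 were higher, by 2.21-fold to 5.12-fold, where 32.2% of all were. In *Spalax* fibrosarcoma 0 of the 5 passed the test, with fitted folds of 1.52 to 2.42, where 15.2% of all were called higher. With scaling to the total reads of each library 5 of 5 passed. On that scale the median log2 change of all microRNAs was itself 1.14, and 83.0% of all calls were higher. Together the 5 profiles took 11.7% and 11.8% of all reads in the IS libraries of spalax_600 and spalax_976, and 0.569% and 0.414% of their UIS libraries. In *Spalax* fibrosarcoma they took 6.60% of the IS library of spalax_2230 and 3.22% of that of spalax_2240, against 0.665% and 1.10% at the UIS. The IS libraries of mouse_1019, mouse_1023 and mouse_512 gave 4.62%, 8.89% and 4.29%, and the mouse UIS libraries 0.233% to 0.638%. On the scale of shares of reads, every IS library thus lay above every UIS library. This was not particular to the members. Scaled to total reads, 83.0% to 92.4% of the microRNAs called in each condition were higher at the IS. The 12 other mesenchymal and fibrosis microRNAs together took 16.4% to 22.0% of IS reads and 5.07% to 8.49% of UIS reads.

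**Figure D1:**
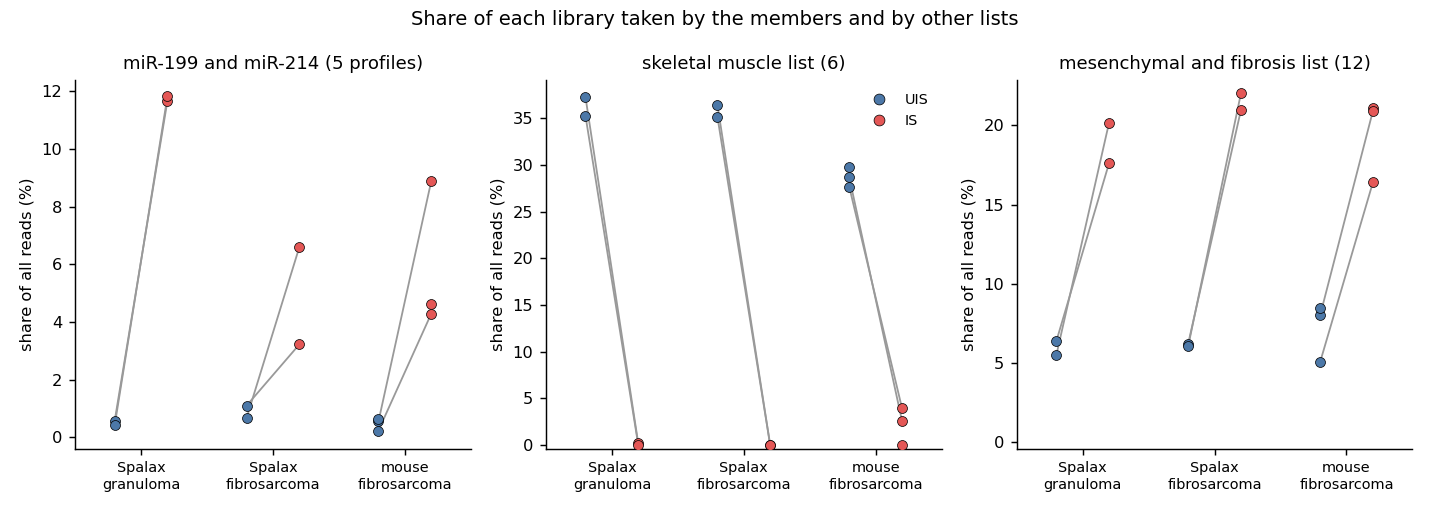
Percent of all microRNA reads of a library (y axis) taken by the 5 miR-199 and miR-214 profiles, by 6 skeletal muscle microRNAs and by 12 other mesenchymal and fibrosis microRNAs, for UIS (blue) and IS (red) libraries of each condition, with lines joining libraries of an animal. The granuloma IS libraries, at 11.7% and 11.8%, lay above all others in the first panel, while muscle microRNAs took 27.6% to 37.3% of UIS reads and at most 3.92% of IS reads.

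Skeletal muscle microRNAs moved with the side. The 6 on the muscle list took 27.6% to 37.3% of the reads of UIS libraries and 0.00953% to 3.92% of IS libraries, and their median change (log2, IS minus UIS) was -11.00 in granuloma, -12.95 in *Spalax* fibrosarcoma and -5.05 in mice. All 6 were called lower in both *Spalax* comparisons, where 22.8% of all microRNAs were called lower in granuloma and 22.1% in fibrosarcoma, and 2 of 6 were in mice, where 25.6% of all were. The summed share of the 5 leukocyte microRNAs was 0.0621% to 0.112% of UIS reads and 0.341% to 2.39% of IS reads. Of these 5, 3 were called higher in each *Spalax* comparison and 2 in mice, while miR-150-5p of lymphocytes was called lower in granuloma (-2.05, limma, adjusted p = 0.0154) and stood at -1.49 in *Spalax* fibrosarcoma and -2.17 in mice, neither past the test. The part of these shifts in the values of miR-199 and miR-214 was not tested. In whole tissue, fewer cells of a type and less RNA per cell cannot be told apart. The values from here on are normalized counts, which are reads divided by the size factor of the library.

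miR-199a-5p had normalized counts of 99726 and 84353 at the IS of spalax_600 and spalax_976, and 8946 and 6329 at their UIS. The *Spalax* fibrosarcoma IS libraries of spalax_2230 and spalax_2240 held 18726 and 28506, and their UIS libraries 10394 and 16868. In mouse_1019, mouse_1023 and mouse_512 the IS values were 24450, 74954 and 36316, and the UIS values were 12118 in the unnumbered library, 8481 in mouse_1023 and 8826 in mouse_512. The sides did not overlap in any condition, and the share of all microRNAs for which this held was not counted. The granuloma IS libraries held the highest values, and both granuloma UIS values lay below both *Spalax* fibrosarcoma UIS values.

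miR-199b-5p, the product of the Dnm1 locus, behaved less evenly. The granuloma IS libraries held 41492 and 31338 normalized counts and the UIS libraries 7426 and 3597. In *Spalax* fibrosarcoma the IS library of spalax_2230 held 55533, the highest value of all libraries, and that of spalax_2240 held 8106, while their UIS libraries held 5954 and 12905. The animal spalax_2230 thus had 9.33 times as much at its IS and spalax_2240 had 0.628 times as much, so the sides overlapped. The mouse IS values were 1274, 2759 and 586 in mouse_1019, mouse_1023 and mouse_512, and the UIS values were 1412, 312 and 344, with the highest UIS value in the unnumbered library above 2 of the 3 IS values.

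The most abundant member was miR-199a-3p, with normalized counts of 370188 and 405894 in the IS libraries of spalax_600 and spalax_976, above 75467 and 54326 in their UIS libraries. It was the microRNA with the second most reads in the first of these IS libraries and with the most reads in the other, where it made up 8.30% and 9.06% of the reads. Its values in spalax_2230 and spalax_2240 were 209459 and 102798 in the IS libraries, and the UIS libraries held 76597 and 122077, so the sides overlapped in *Spalax* fibrosarcoma, and spalax_2240 held 0.842 times as much at its IS as at its UIS. In mouse_1019, mouse_1023 and mouse_512 the IS libraries held 129447, 272260 and 122153, and the UIS libraries 83609 (unnumbered), 91379 (mouse_1023) and 52341 (mouse_512). By number of reads it ranked between 1 and 9 among the names of an IS library and between 16 and 28 in a UIS library.

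miR-214-3p, the guide arm of the neighbor of Mir199a-2, rose from 1049 and 601 normalized counts at the UIS of spalax_600 and spalax_976 to 7239 and 6579 at the IS. In *Spalax* fibrosarcoma the UIS held 1081 and 1544 and the IS 2839 and 2137 in spalax_2230 and spalax_2240. The mouse UIS libraries held 1771 (unnumbered), 1200 (mouse_1023) and 824 (mouse_512), and the IS libraries of mouse_1019, mouse_1023 and mouse_512 held 4686, 10959 and 4582. The opposite arm, miR-214-5p, was the least abundant member in the *Spalax* libraries, with 235 and 164 at the granuloma-bearing UIS and 1983 and 1350 at the granuloma IS, and with 249 in spalax_2230 and 450 in spalax_2240 at the UIS, where the IS held 467 and 621. In mice it held 247, 207 and 175 in the UIS libraries, and the IS libraries gave 688, 1796 and 896, in the order above. For both arms the sides did not overlap in any of the 3 conditions. As for miR-199a-5p, how many of all microRNAs showed this was not counted.

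**Figure D2:**
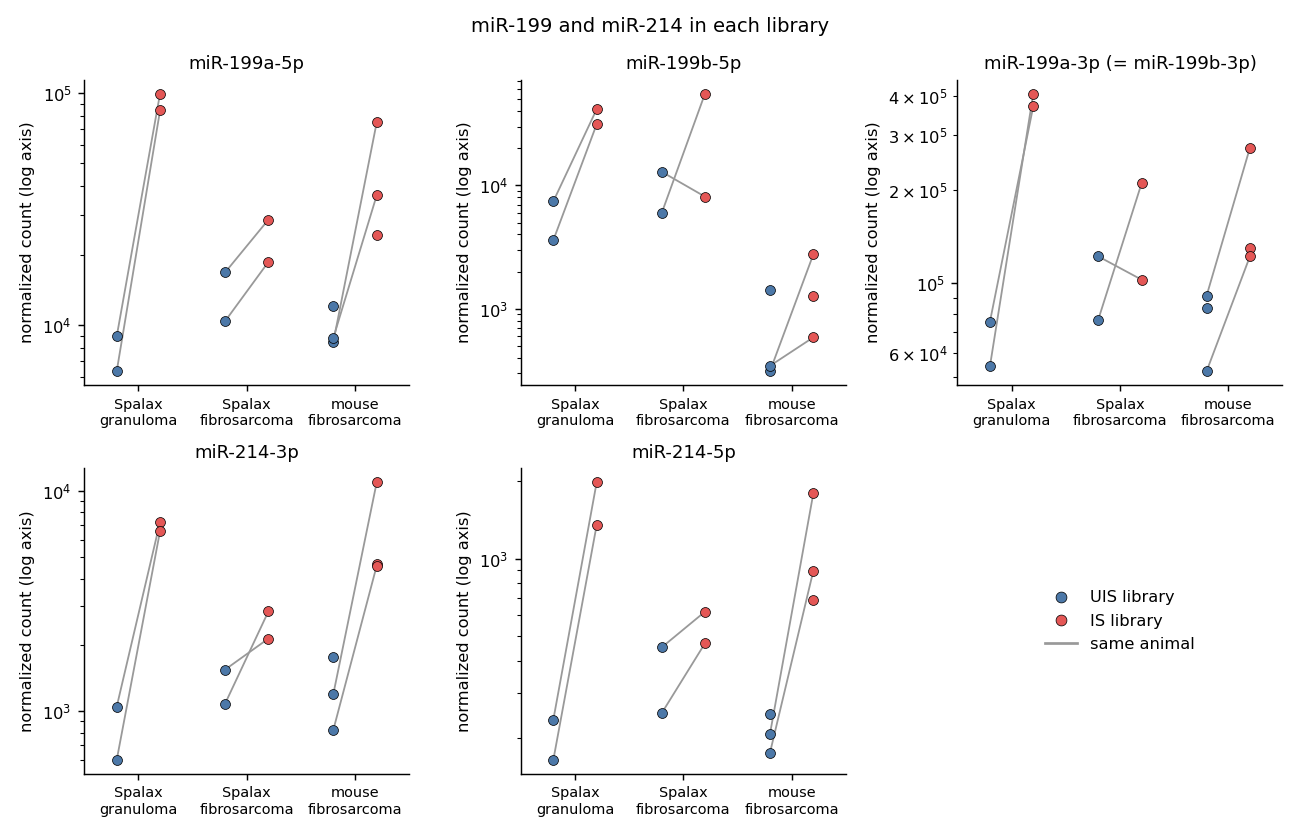
Normalized count (y axis, log scale, its range set for each panel) of each miR-199 and miR-214 profile in every library, UIS in blue and IS in red, with lines joining the libraries of an animal. Lines rise steeply in granuloma for all 5 profiles, while in *Spalax* fibrosarcoma spalax_2240 falls for miR-199b-5p (0.628 times) and miR-199a-3p (0.842 times).

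In granuloma, limma with Benjamini-Hochberg adjustment called 5 of 5 profiles higher at the IS, where 25.5% of the 447 microRNAs tested were called higher. The difference of log2(normalized count + 1) was 3.61 ± 0.39 (SE) for miR-199a-5p, with an adjusted p of 0.000596. It was 3.12 ± 0.43 for miR-214-3p (limma, adjusted p = 0.00127) and 3.05 ± 0.48 for miR-214-5p (limma, adjusted p = 0.00221). For miR-199a-3p the difference was 2.60 ± 0.41 (limma, adjusted p = 0.00226). The call of miR-199b-5p, at 2.80 ± 0.87 (limma, adjusted p = 0.0316), was lost when any of the 4 granuloma libraries was left out, with adjusted p-values from 0.0637 to 0.171. The median over the 5 profiles was 3.05, and over all microRNAs tested it was 0.13.

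In *Spalax* fibrosarcoma 0 of 5 profiles were called, where 15.2% of 447 microRNAs were called higher. The differences on the same log2 scale were 0.80 (95% interval -0.11 to 1.71) for miR-199a-5p, 0.60 (-0.36 to 1.57) for miR-199a-3p, 1.28 (-0.76 to 3.31) for miR-199b-5p, 0.93 (-0.06 to 1.92) for miR-214-3p and 0.68 (-0.44 to 1.81) for miR-214-5p, with limma's adjusted p-values between 0.126 and 0.300. All 5 intervals reached above a doubling. For miR-199b-5p the value rested on single libraries, since it was -0.11 without the IS library of spalax_2230 and 2.66 without that of spalax_2240, where limma's adjusted p was 0.0236. Without the IS library of spalax_2230, miR-199a-3p gave 0.09.

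The scaling changed the calls in *Spalax* fibrosarcoma. Scaled to the total reads of each library, muscle reads included, all 5 profiles passed in all 3 conditions, and the median log2 change of all microRNAs was 1.71 for granuloma, where it had been 0.13, 1.14 for *Spalax* fibrosarcoma, where it had been -0.23, and 2.24 for mice, where it had been 0.21. Of the called microRNAs, 83.7%, 83.0% and 92.4% were then higher at the IS, against 52.8%, 40.7% and 55.7% with the size factors. Relative to the median of all microRNAs, miR-199a-5p in *Spalax* fibrosarcoma stood at 1.03 with the size factors and at 1.35 with the totals, and in granuloma at 3.48 and 3.74.

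The mouse libraries called 4 of 5 profiles higher at the IS, where 32.2% of 547 microRNAs were called higher. miR-214-3p differed by 2.36 ± 0.48 (SE; limma, adjusted p = 0.00659), miR-214-5p by 2.31 ± 0.45 (limma, adjusted p = 0.00586) and miR-199a-5p by 2.07 ± 0.45 (limma, adjusted p = 0.00844). The difference of miR-199a-3p was 1.14 ± 0.40, with limma's adjusted p at 0.0460. That call was lost when any mouse library other than the IS library of mouse_512 was left out, with adjusted p-values from 0.0525 to 0.136, and its value without the IS library of mouse_1023 was 0.77. Of 9 other settings that kept all mouse libraries, 7 kept the call. For miR-199b-5p the difference was 1.25 (95% interval -0.59 to 3.10), which did not pass. The share of leukocyte microRNAs in the mouse IS libraries ranged from 0.341% to 1.77%, with the highest in mouse_1019, and the muscle share from 0.0100% in mouse_1019 to 3.92% in mouse_512.

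**Figure D3:**
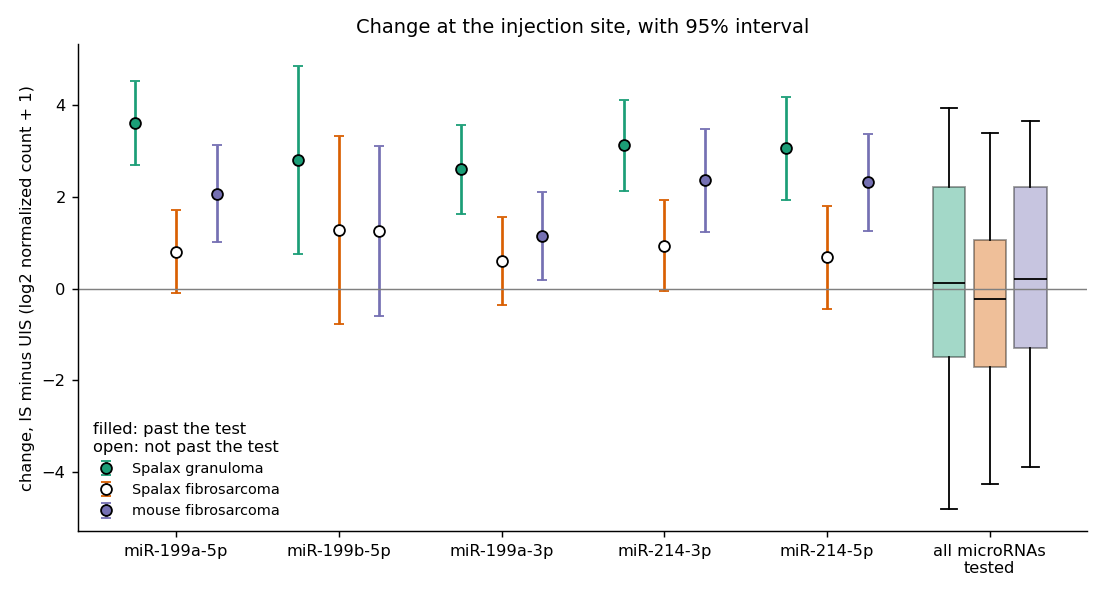
Difference between IS and UIS in log2(normalized count + 1) for the 5 profiles in granuloma (green), *Spalax* fibrosarcoma (orange) and mouse fibrosarcoma (purple), with 95% intervals and filled points where limma's adjusted p was under 0.05. The boxes at the right give the quartiles of all microRNAs tested with whiskers from the 5th to the 95th percentile, and all 5 granuloma points lie at 2.60 or above while the *Spalax* fibrosarcoma points lie between 0.60 and 1.28.

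The question whether the granuloma and *Spalax* fibrosarcoma changes differ was put to the same fit. The value of the granuloma change was above that of the fibrosarcoma change for all 5 profiles, and 1 of the 5 differences was called, where 3.8% of 447 microRNAs were called. That was miR-199a-5p, with a difference between the changes of 2.80 ± 0.55 (limma, adjusted p = 0.0432). With the animal as a replicate block its adjusted p was 0.0598, and leaving out 6 of the 8 *Spalax* libraries, all but the fibrosarcoma IS library of spalax_2240 and the granuloma IS library of spalax_976, gave adjusted p-values from 0.0713 to 0.191. The difference was 2.37 for miR-214-5p, 2.19 for miR-214-3p and 2.00 for miR-199a-3p, each with a limma adjusted p of 0.0898, and 1.53 for miR-199b-5p (95% interval -1.36 to 4.41).

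The IS libraries compared directly gave the same order. Granuloma IS was above *Spalax* fibrosarcoma IS in every library for 4 profiles, the exception being miR-199b-5p. The share of all microRNAs with such an order was not counted, and the members moved together, so this is a description only. Of the 5 profiles, 2 were called higher in granuloma, where 15.4% of 447 microRNAs were. miR-199a-5p was higher by 1.99 ± 0.39 (limma, adjusted p = 0.00999), which was lost without the granuloma IS library of spalax_600 (adjusted p = 0.0650). For miR-214-3p the difference was 1.49 ± 0.43 (limma, adjusted p = 0.0488), and this call was lost when any of the 8 libraries was left out. miR-199a-3p (1.40), miR-214-5p (1.60) and miR-199b-5p (0.77) did not pass, and miR-199b-5p gave -0.62 without the fibrosarcoma IS library of spalax_2240.

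At the UIS all 5 profiles had lower means in granuloma-bearing than in fibrosarcoma-bearing *Spalax*, by 0.59 to 0.82 on the log2 scale. None was called, where 0% of 447 microRNAs were called, and 5 of the 447 had an unadjusted p under 0.05 (7 with edgeR and 10 with DESeq2, which also called 0 after adjustment). The 95% interval of the difference ran from -1.72 to 0.09 for miR-199a-5p and, the widest of the 5, from -2.80 to 1.28 for miR-199b-5p. Granuloma-bearing and fibrosarcoma-bearing *Spalax* also differed in time since injection, which cannot be told apart from the diagnosis.

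Ratios between members of a library do not depend on any scaling. The ratio of miR-199a-5p to miR-199a-3p was 0.116 to 0.138 in the *Spalax* UIS libraries and 0.0928 to 0.169 in the mouse UIS libraries. At the IS it was 0.208 to 0.269 in granuloma and 0.189 to 0.297 in mice, and in *Spalax* fibrosarcoma it was 0.0894 in spalax_2230 and 0.277 in spalax_2240. The ratio rose at the IS in 5 of the 6 animals with both sides numbered, by a mean of 0.80 ± 0.74 (SD, log2, n = 6), and the exact sign-flip test, two-sided, gave p = 0.0625 (0.125 after Benjamini-Hochberg adjustment over 4 ratios), where the smallest p that 6 pairs allow is 0.03125. The animal that went the other way was spalax_2230, whose ratio at the IS was 0.659 times that at the UIS. The miR-199a-3p reads cannot be told from those of miR-199b-3p, so this ratio does not compare the arms of a single gene. The IS library of spalax_2230 held 101996 reads of miR-199b-5p and 34394 of miR-199a-5p. The part of miR-199b in this exception was not tested.

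The same animal stood apart in the other miR-199 ratio. miR-199b-5p over miR-199a-5p was 2.97 at the IS of spalax_2230, against 0.284 at the IS of spalax_2240, 0.372 and 0.416 in the granuloma IS libraries and 0.568 to 0.830 in all *Spalax* UIS libraries. It was the only library in which miR-199b-5p had more reads than miR-199a-5p. Within animals the ratio changed by a mean of -0.32 ± 1.42 (SD, log2, n = 6), rising in 2 and falling in 4 (exact sign-flip test, two-sided, p = 0.625).

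miR-214-3p over miR-199a-3p rose at the IS in 5 of 6 animals, by a mean of 0.76 ± 0.59 (SD, log2, n = 6), with p = 0.0625 in the exact sign-flip test, two-sided (0.125 adjusted). In granuloma it was 0.0162 to 0.0196 at the IS and 0.0111 to 0.0139 at the UIS, and in mice 0.0362 to 0.0403 and 0.0131 to 0.0212. The animal spalax_2230 was again the exception, at 0.960 times, and the denominator was again the 3p reads shared with miR-199b-3p. The ratio of the miR-214 arms, 5p over 3p, stayed between 0.139 and 0.291 in all 14 libraries and changed by a mean of -0.13 ± 0.28 (SD, log2, n = 6; exact sign-flip test, two-sided, p = 0.281).

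**Figure D4:**
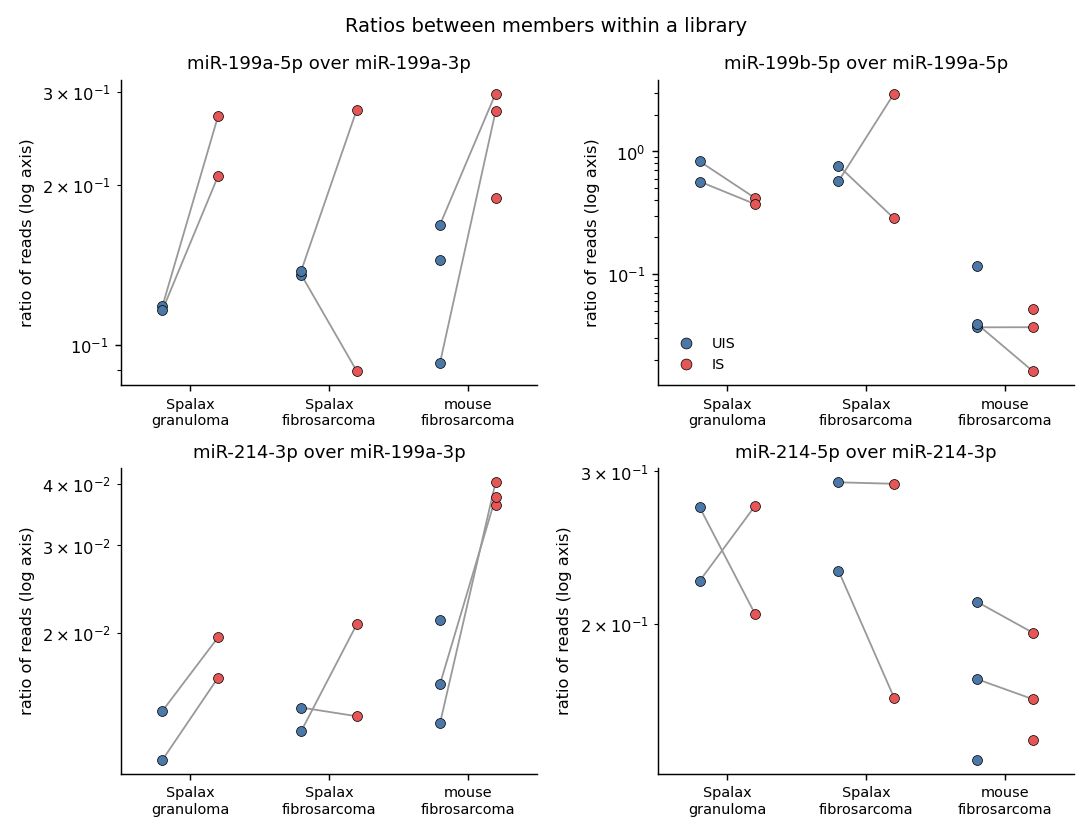
Ratio of reads between members within each library (y axis, log scale, its range set for each panel), UIS in blue and IS in red, with lines joining the libraries of an animal. In the second panel all *Spalax* libraries (0.284 to 2.97) lie above all mouse libraries (0.0161 to 0.117), and the top point is the IS of spalax_2230.

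The species were compared only as values, since sequence, mapping to mouse names, age and time all differ between them. miR-199b-5p over miR-199a-5p was 0.284 to 2.97 in the 8 *Spalax* libraries and 0.0161 to 0.117 in the 6 mouse libraries, with no overlap. Of the mouse libraries, 5 are also held in the *Spalax* table, on the same scale, and there miR-199b-5p was 235 to 2295 normalized counts in mouse against 3597 to 55533 in *Spalax*. The miR-214-3p values on that scale overlapped, at 669 to 9114 in mouse and 601 to 7239 in *Spalax*, and so did those of miR-199a-5p, at 6399 to 62335 and 6329 to 99726.

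The members moved closely together. Over the 8 *Spalax* libraries the Pearson correlation of log2(normalized count + 1) was 0.99 between miR-199a-5p and miR-214-5p and 0.98 between miR-199a-3p and miR-214-3p, and over the 6 mouse libraries it was 0.99 and 0.95. The weakest pair was miR-199a-5p with miR-199b-5p in *Spalax* (0.75) and miR-199b-5p with miR-214-5p in mice (0.71). All these points share the split between IS and UIS and the size factors.

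Of 397 other microRNAs that passed the filter in both tables, those most like miR-199a-3p by the lower of the correlations in the 2 species were miR-152-5p (0.86 in *Spalax*, 0.84 in mice), miR-450a-5p (0.88 and 0.81), miR-496a-3p (0.81 and 0.91), miR-450b-3p (0.96 and 0.78) and miR-125b-1-3p (0.81 and 0.77). Those most like miR-214-3p were miR-31-3p (0.90 and 0.92), miR-125b-1-3p (0.90 and 0.93), miR-450a-5p (0.93 and 0.88), miR-542-3p (0.88 and 0.87) and miR-450b-3p (0.98 and 0.84).

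The other 12 mesenchymal and fibrosis microRNAs did not move one way. The list was mixed. It held miR-29a-3p, miR-29b-3p and miR-29c-3p and the smooth muscle miR-143-3p and miR-145a-5p, all called lower in granuloma. In granuloma 4 of the 12 were called higher and 6 lower (median change -0.52), in *Spalax* fibrosarcoma 1 and 3 (-0.37) and in mice 2 and 5 (-0.60), with medians over all microRNAs of 0.13, -0.23 and 0.21. Over all microRNAs tested the shares called higher and lower were 25.5% and 22.8%, 15.2% and 22.1%, and 32.2% and 25.6%. miR-21a-5p, which is raised in many tumors and in fibrosis, rose in all 3 comparisons, by 3.63, 3.63 and 3.04 on the log2 scale (limma, adjusted p between 0.000581 and 0.00106). The granuloma change of miR-21a-5p minus its *Spalax* fibrosarcoma change was -0.000954 (SE 0.63, limma, adjusted p = 0.999). Of the 12 such differences 0 were called, where 3.8% of 447 microRNAs were. They ran from -1.72 for miR-29b-3p to 1.74 for miR-31-5p (median 0.14). Those of miR-125b-5p and miR-29c-3p were 1.17 and -1.60 (limma, adjusted p = 0.0949 each). Between the *Spalax* IS libraries miR-125b-5p was called higher in granuloma (1.07, limma, adjusted p = 0.0256) and miR-29c-3p lower (-1.28, limma, adjusted p = 0.0427). Over all 447 microRNAs 69 were called higher and 15 lower there. miR-31-5p rose by 3.38 in granuloma and 5.25 in mice (limma, adjusted p = 0.0276 and 0.00471) and had a value of 1.64 in *Spalax* fibrosarcoma (adjusted p = 0.243). miR-29c-3p, of a family that represses collagen messages, fell by 4.52 in granuloma, by 2.92 in *Spalax* fibrosarcoma and by 4.11 in mice, and miR-143-3p of smooth muscle fell by 1.74, 2.21 and 2.55. The summed share of the 12 was 16.4% to 22.0% of IS reads and 5.07% to 8.49% of UIS reads, with the granuloma IS libraries (17.6% and 20.2%) below the *Spalax* fibrosarcoma IS libraries (20.98% and 22.0%).

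Of the remaining marker lists, the endothelial pair was called lower in normalized count in all 3 comparisons with the UIS (2 of 2 each), the smooth muscle pair likewise, and the red cell pair in none. Both smooth muscle microRNAs, miR-143-3p and miR-145a-5p, are also on the mesenchymal and fibrosis list above. As shares of all reads these lists did not fall everywhere, with smooth muscle at 1.35% to 2.52% of granuloma IS reads and 1.68% to 1.76% of granuloma-bearing UIS reads. Of the epithelial list 1 of 5 tested was called higher in each *Spalax* comparison and 1 of 4 lower in mice, and it took at most 0.0234% of any library.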

How the data were processed

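The libraries (TruSeq Small RNA) shared 1 sequencing lane. The labels and the methods name different HiSeq instruments. According to the methods, adaptor trimming was followed by mapping with mirDeep and testing with DESeq2. The submitters' processing notes name the build GRCm38 and, among the tools, TopHat 1.4.1, HTSeq and DESeq. The role of the build in the small RNA mapping is not given in the sources used here. The signal deposited by the authors is a normalized count, reads divided by a size factor, and 100% of values were whole reads (within 0.001) once multiplied back. Reads carry no molecular identifiers.

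Groups came from the labels. The members and all lists were chosen with earlier results of these data known. limma 3.58.1 (trend on the mean) was fitted to log2(value + 1) of microRNAs that reached 10 in 2 or more *Spalax* or 3 or more mouse libraries. The 8 *Spalax* libraries shared a fit and the 6 from mice had their own, because the tables were normalized separately, with a threshold of 0.05 after Benjamini-Hochberg adjustment. These main fits held a mean for each group and no term for the animal. Each library was taken as a replicate because the labels give separate animals within a condition. No pair of libraries of a condition agreed within sampling noise (lowest chi-square divided by its degrees of freedom, 327). That value cannot show whether libraries are independent. The lowest pair was the unnumbered mouse UIS library and the UIS library of mouse_1023. IS and UIS libraries with a number came from the same animal and were therefore taken as paired for the replicate block, although their deviations correlated weakly (r between -0.107 and 0.122). Ratios were tested by exact sign flips over 6 animals.

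Named were all members, some microRNAs of the mesenchymal and marker lists, the 5 whose pattern was most like miR-199a-3p and the 5 most like miR-214-3p. Alternatives were scaling to totals, size factors without muscle microRNAs, no filter, a pseudocount of 0.1, no trend, edgeR 4.0.16 with TMM and DESeq2 1.42.0 on the recovered reads, the replicate block, identical names counted once, fits restricted to the groups compared and leaving out each library, and for ratios 1 read added to both members and leaving out each animal. Between IS and UIS, edgeR made 212 calls for granuloma, 163 for *Spalax* fibrosarcoma and 311 for mice, and limma made 216, 167 and 316. The scripts were tested on simulated data. Positions and hairpins came from GENCODE M21, and R 4.3.3 and Python 3.11.15 were used.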

Additional observations from a re-analysis of the deposited data

Results flagged for a closer look

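The change of miR-199a-5p from UIS to IS differed between granuloma and *Spalax* fibrosarcoma by a test of the difference itself, at 2.80 on the log2 scale (limma, adjusted p = 0.0432). Both sides enter this value. Granuloma minus fibrosarcoma was 1.99 at the IS and -0.82 at the UIS, where the difference was not called. Both granuloma animals (11.1-fold and 13.3-fold) had larger rises than both fibrosarcoma animals (1.80-fold and 1.69-fold). Over the other settings that kept all libraries its adjusted p ranged from 0.00279 to 0.0686. Its adjusted p was 0.0598 in the fit with the replicate block, and when any of 6 of the 8 *Spalax* libraries was left out it was between 0.0713 and 0.191. With DESeq2 the difference also passed for miR-214-5p (adjusted p = 0.0189) and miR-214-3p (adjusted p = 0.0398), and with scaling to totals for miR-214-3p (limma, adjusted p = 0.0493).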

How the results depend on the processing

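Under all alternatives 4 or 5 of the 5 members were called in granuloma and 3 to 5 in mouse fibrosarcoma. In *Spalax* fibrosarcoma the 0 members called became 5 with scaling to totals, where 83.0% of all calls were higher. When a library was left out, miR-199b-5p there ranged from -0.11 to 2.66. For the difference between the growths, the 1 member called became 2 with totals and 3 with DESeq2, and it became 0 with no filter, with a pseudocount of 0.1, without the trend and with the replicate block. There the 17 microRNAs called became 43 with totals, 61 with DESeq2, 0 with no filter or a pseudocount of 0.1 and 5 with the replicate block, and leaving out a library gave 0 to 1 members and 0 to 35 microRNAs. Between the *Spalax* IS libraries the 2 members called became 1 with size factors without muscle microRNAs, no filter, a pseudocount of 0.1, no trend, edgeR with TMM and fits of the libraries compared, and 0 to 2 when a library was left out, where miR-199b-5p ranged from -0.62 to 2.15. With a library left out, all microRNAs called ranged from 128 to 234 in granuloma, 76 to 179 in *Spalax* fibrosarcoma, 31 to 87 between the IS libraries and 189 to 289 in mice. In mice the replicate block rests on the 2 numbered pairs and moved miR-199b-5p from 1.25 to 1.95 (adjusted p = 0.0681), and the block changed no other call of a member than that of the difference above. Ratios kept their direction under every alternative, and with 5 animals the exact sign-flip test cannot go below p = 0.0625. The cause of these shifts was not tested. With 2 libraries in each *Spalax* condition, leaving out 1 leaves a lone library that is assumed to vary like the others. The parts of sex, age and time since injection were not tested.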
